A study of Homo sapiens with 2 samples.

Results

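Heterotrimeric G proteins and their RGS regulators were followed in A375 cells, a line established from a human malignant melanoma, after knockdown of THOC2. Members were chosen by gene symbol: every probe of the array annotated to a Gα, Gβ or Gγ subunit gene or to a numbered RGS gene. This gave 78 probes for 55 genes, of 58199 probes for 34757 gene symbols, with 16 Gα genes, 6 Gβ genes, 12 Gγ genes and 21 RGS genes. At least 1 array read 48 of these probes (36 genes) well above background, and both arrays read 42 (32 genes). "Well above background" is a mark that the scanner software sets for each spot.

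A G protein is a switch below the membrane, made of an α subunit that binds GTP and a tightly joined βγ pair. An activated receptor loads the α subunit with GTP, and both α and βγ then act on effectors such as adenylyl cyclases and phospholipase C. RGS proteins speed up GTP hydrolysis by the α subunit and so shorten the signal. In melanocytes the melanocortin receptor raises cAMP through Gs, and activating mutations of the Gq class genes GNAQ and GNA11 are well known in melanoma of the eye.

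The study asked which genes depend on THOC2, a subunit of the THO complex that acts in mRNA processing and export. A375 cells were transfected with siRNA against THOC2 (si-THOC2) or with a control siRNA (NC), and RNA was taken after 48 h. Each condition was measured on 1 single-colour Agilent array with probes of 60 bases, so there was no replicate and no test between conditions could be made. The methods list several THOC2 siRNAs and the sources used here do not say in words which was hybridised, so the si-THOC2 array stands for 1 transfection with an siRNA not named here.

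For both samples the source label contradicts the title and description, which were followed here. Both THOC2 probes were lower on the array so labelled si-THOC2. The probe at chrX:122734486-122734545 (hg19) had a processed signal of 136 ± 13.9 on the NC array and 40.9 ± 5.22 on the other, giving a log2 fold change of -1.42. The probe at chrX:122747960-122748019 had 67.3 ± 7.36 and 35.1 ± 4.78, a log2 fold change of -0.63. Here and below, the processed signal is the background-subtracted intensity of a spot, ± is the error that the software gives it, and a log2 fold change is si-THOC2 minus NC after each array was scaled on its 75th percentile (6.62 and 6.31 on the log2 scale). A signal can therefore be lower with si-THOC2 and its log2 fold change still be above 0. The technical SD of a log2 fold change, from probes printed several times, was 0.06 at a log2 signal over 8, 0.11 from 6 to 8, 0.29 from 4 to 6 and 0.44 under 4. These values are medians over 244, 36, 6 and 14 repeated probes, in that order. The technical SD leaves out the spread between cultures, which is unknown.

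The NC array read more probes well above background than the si-THOC2 array, 42.3% against 39.4%, and no spot was saturated. Of 12 melanoma and neural crest marker genes, 8 were measured on both arrays, among them SOX10 at 6196 and 5196 and MITF at up to 274 and 215. PMEL, TYR and SOX9 were not well above background on either array, and MLANA was so only on the si-THOC2 array. Of 9 marker genes of other cell types, 4 were measured on both arrays (KRT14, PTPRC, CD3E and PECAM1), at signals of 16.2 to 83.9 with NC, and KRT5, EPCAM, CDH1, COL1A1 and ALB were not measured on both. All 4 had a log2 fold change (defined above) over 0, with a median of 0.53, the highest being CD3E at 0.87 and KRT14 at 0.62. The median was 0.30 after normexp. Each value rests on 1 probe, although PTPRC has 5 probes, PECAM1 has 3 and KRT14 has 2. The 8 melanoma genes measured had 4 below 0 and 4 above, with a median of 0.01, from -0.66 (S100B) to 0.75 (DCT). Summed before scaling, over the highest probe of every listed gene, the second list had 172 with NC and 205 with si-THOC2. The melanoma list had 31130 and 22696, of which AXL alone gave 23189 and 16034 (log2 fold change -0.22). The part of either list in the results below was not tested.

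As a whole, the G protein and RGS genes differed little between the arrays. Of the 32 genes measured on both arrays, 14 had a log2 fold change below 0 and 18 above, with a median of 0.06, an SD of 0.29 and a range of -0.63 to 0.57. Over all 15647 genes measured on both arrays the median was 0.04 and the SD 0.31, and 43.2% lay below 0, against 43.8% of the members. The change was under 1.2-fold for 23 of the 32 genes. It reached 0.5 on the log2 scale for 6. Of these, GNG10 and GNG2 were lower and GNAQ, GNB1L, RGS16 and RGS19 higher with si-THOC2. The shares of all genes under 1.2-fold and past 0.5 were not counted, so these counts describe the members only. At 1.5-fold, 2 of the 32 were lower and 0 higher, against 409 and 552 of 15647 genes. After normexp only GNG10 still reached 0.5 (-0.60), and GNB1L and RGS19 were under 0.5 also with quantile normalization (0.45 each).

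**Figure D1:**
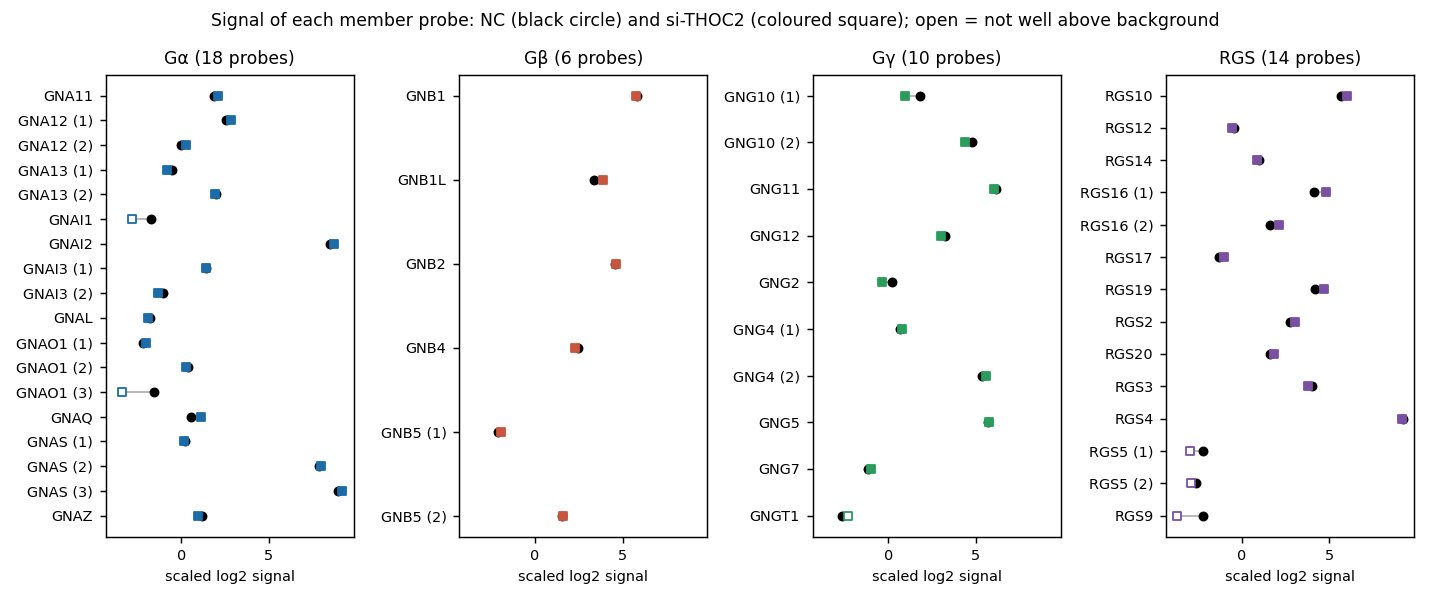
Scaled log2 signal (log2 processed signal minus the array's 75th percentile) of the 48 member probes read well above background on at least 1 array, by family, with NC as black circles, si-THOC2 as coloured squares and open symbols where the probe was not well above background. The pairs lie close together for most probes, and all 6 open symbols are on the si-THOC2 array. Over all probes of the array, 24616 were well above background with NC, 22936 with si-THOC2 and 22207 on both.

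By the threshold of 2-fold on probes read on at least 1 array, 3 of 48 member probes were called lower and 0 higher. Over all 25345 such probes, 3.33% were called lower and 2.93% higher. The 3 were probes of GNAI1, GNAO1 and RGS9, and each was read well above background on the NC array only, so that the si-THOC2 side gives only a bound. With dim signals set at the detection limit of their array, 0 of 48 member probes were called in either direction, against 0.888% of all probes lower and 1.88% higher. Among probes read on both arrays, 0 of 42 members reached 2-fold, against 0.365% of 22207 probes lower and 0.829% higher. At 1.5-fold on both arrays, 2 of 42 members were lower (a GNG10 probe and the GNG2 probe) and 1 was higher (an RGS16 probe), against 2.94% and 3.84% of all probes.

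**Figure D2:**
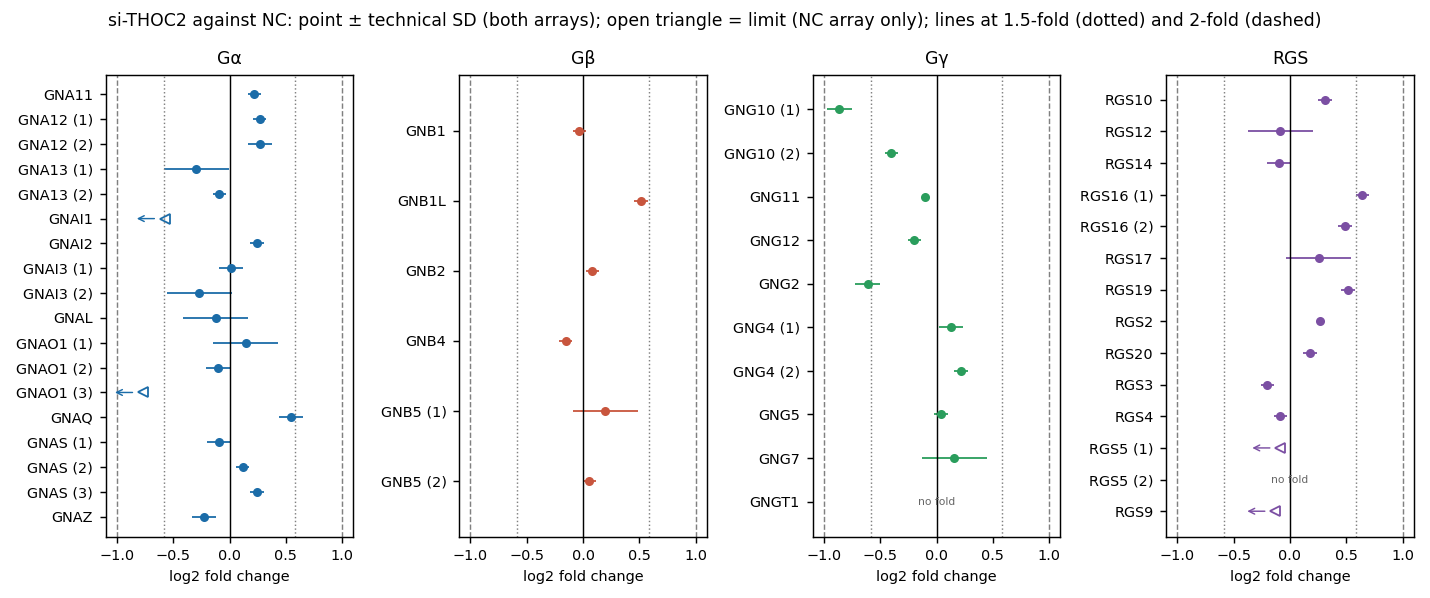
Log2 fold change of si-THOC2 against NC for each member probe read on at least 1 array, by family. Points with the technical SD are probes read on both arrays. Open triangles are the bounds of probes read on the NC array only. The GNGT1 probe and the weaker RGS5 probe have no bound and are marked "no fold". The points furthest from 0 are the first GNG10 probe at -0.86 and the first RGS16 probe at 0.64, inside the dashed lines at 2-fold.

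Among the Gα genes, GNAQ was the only one whose change on both arrays reached 0.5 on the log2 scale. Of 10 Gα genes measured on both arrays, 4 were below 0 and 6 above, with a median of 0.06 and a range of -0.23 to 0.55. The median was below 0, at -0.12, once probes read on the NC array only were counted. By class, both Gq genes measured were above 0, and the Gs, Gi and G12 classes were each split evenly between genes below and above 0.

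The Gs class stimulates adenylyl cyclase. GNAS, its main gene, was read on both arrays by 3 of its 5 probes. The probe at chr20:57486004-57486063 had signals of 48274 ± 4827 with NC and 46117 ± 4612 with si-THOC2, giving a log2 fold change of 0.24. The next, which spans 312 bases of the genome at chr20:57485083-57485394 and so crosses an intron, had 22553 ± 2255 and 19710 ± 1971 (0.12). The third, at chr20:57475008-57475067, had 114 ± 11.9 and 86.5 ± 9.27 (-0.09). The mean over the probes was 0.09, and the probes lay on both sides of 0. The remaining probes, at chr20:57415463-57415522 and chr20:57430307-57430366, lie further upstream at this locus with alternative first exons and were not well above background on either array. GNAL, the Gs member of olfactory neurons and striatum, had 28.1 ± 4.09 with NC and 20.8 ± 3.87 with si-THOC2, giving a log2 fold change of -0.12 that is smaller than its technical SD of 0.29.

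The Gi class inhibits adenylyl cyclase and releases most of the free βγ in many cells. GNAI2 was strongly read on both arrays, at 34961 ± 3496 with NC and 33370 ± 3337 with si-THOC2 (log2 fold change 0.24). GNAI3 was read by 2 of 3 probes, with log2 fold changes of 0.01 (258.7 ± 26.0 and 210.4 ± 21.3) and -0.27 (47.3 ± 5.60 and 31.7 ± 4.51, technical SD 0.29). GNAZ, a pertussis toxin insensitive member, had 221 ± 22.3 and 152 ± 15.6 (-0.23), and its second probe was dim on both arrays.

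GNAI1, the third Gαi gene, was read at 29.3 ± 4.18 on the NC array and at 11.2 ± 3.45 on the si-THOC2 array, where it was not well above background. Its measured log2 fold change was -1.07 (technical SD 0.29), a 2.10-fold difference. The bound, which leaves out the error of the signals, is 1.49-fold lower with si-THOC2. After normexp the log2 fold change was -0.16. This alternative background correction adds an offset of 50 to every signal, which draws the fold change of dim probes toward 0, and the mean of the THOC2 probes moved from -1.03 to -0.51 with it. For scale, the dimmest probe that still counted as well above background read 14.7 with NC and 15.9 with si-THOC2. The probe lies at chr7:79848271-79848330 (hg19). Its first 30 bases are shown because the value for this gene rests on 1 probe.
GNAI1: aggttagtctttcagtacacgttactggta

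GNAO1, the Go subunit abundant in brain, was read differently by its 3 probes, which are shown with their first 30 bases to tell them apart.
GNAO1, chr16:56374823-56374882: gtttcttaacaagaaggacatatttgaaga
GNAO1, chr16:56381976-56382035: caccccatattaactgtaattttgtaagaa
GNAO1, chr16:56391090-56391149: ggtttcacttttaagacttaatctttgctg
The first had 21.6 ± 3.67 with NC and 19.3 ± 3.77 with si-THOC2 (log2 fold change 0.14). The second had 127.5 ± 13.1 and 96.1 ± 10.1 (-0.10). The third had 33.5 ± 4.54 with NC and 7.63 ± 3.29 with si-THOC2, the latter not well above background. Its measured log2 fold change was -1.83 (technical SD 0.44), and -0.23 after normexp. The bound, which leaves out the error of the signals, is 1.71-fold lower with si-THOC2. The probes of 1 gene thus disagreed, with those read on both arrays near 0, and the GNAO1 mean moved from 0.02 to -0.59 when the third probe was counted as measured.

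The Gq class activates phospholipase Cβ. GNAQ had 145.8 ± 14.9 with NC and 171.8 ± 17.5 with si-THOC2, and so was higher with si-THOC2 before and after scaling. Its log2 fold change was 0.55 (1.46-fold, technical SD 0.11), and 0.36 after normexp. The probe lies on the minus strand at chr9:80335219-80335278, and its first 30 bases are shown since the value rests on it alone.
GNAQ: ccacgattttaaaatgacttttattatggg
GNA11, the closest relative of GNAQ, had 362 ± 36.3 and 340.1 ± 34.2, a log2 fold change of 0.22. In the G12 class, both GNA12 probes gave 0.27, with signals of 580 ± 58.1 and 564 ± 56.5 for the stronger. GNA13 went the other way in both probes, at -0.09 (389 ± 39.0 and 295 ± 29.7) and -0.30 (68.8 ± 7.51 and 45.2 ± 5.55, technical SD 0.29). GNA14 and GNA15 of the Gq class and the transducins of photoreceptor and taste cells, GNAT1, GNAT2 and GNAT3, were not well above background on either array, at signals of at most 4.08.

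Of the 5 Gβ genes measured on both arrays, 2 were below 0 and 3 above, with a median of 0.08 that was -0.0088 after normexp. GNB1, GNB2 and GNB4 make up the common βγ pairs. GNB1 had 5472 ± 547 with NC and 4317 ± 432 with si-THOC2, giving a log2 fold change of -0.03. GNB2 had 2321 ± 232 and 1982 ± 198 (0.08), which became -0.01 after normexp. GNB4 had 541 ± 54.2 and 392.5 ± 39.4 (-0.15). These 3 genes thus differed by at most 1.11-fold. GNB5, which pairs with R7 class RGS proteins in place of Gγ, had 0.06 from its stronger probe (288 ± 29.0 and 242 ± 24.4) and 0.20 from the weaker (22.8 ± 3.75 and 21.1 ± 3.89, technical SD 0.29). GNB3, known from cone photoreceptors, was dim on both arrays, at 11.8 and 4.82.

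GNB1L differed most in the Gβ group. It encodes a WD40 repeat protein that resembles Gβ and lies in the 22q11 deletion region, and it is not an established partner of Gγ. Its probe, at chr22:19776052-19776111, had 1034 ± 103 with NC and 1191 ± 119 with si-THOC2. It was higher with si-THOC2 before and after scaling, with a log2 fold change of 0.51 (1.43-fold, technical SD 0.06), and 0.40 after normexp.

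Of the member genes measured on both arrays, 2 of 32 were lower by 1.5-fold or more, against 409 of 15647 over all genes, and both were Gγ genes. Of 7 Gγ genes measured on both arrays, 4 were below 0 and 3 above, and the median was -0.10, which turned to 0.10 only with no detection filter. The Gγ subunit carries the lipid anchor that holds βγ at the membrane. GNG10, a widely expressed member, was lower with si-THOC2 in both of its probes. They are shown with their first 30 bases because they differ in size of change and in position, the first being placed over 2382 bases of chr9 and so crossing an intron, the second on an unbroken stretch.
GNG10, chr9:114429198-114431579: ctagatcctgtgctttactctgaagactct
GNG10, chr9:114432370-114432429: agaattcttaacttcacaagtgttttactt
The first had 338 ± 34.0 with NC and 150.1 ± 15.5 with si-THOC2, giving a log2 fold change of -0.86 (1.82-fold lower, technical SD 0.11). The second had 2688 ± 269 and 1642 ± 164, a log2 fold change of -0.40 (1.32-fold lower, technical SD 0.06). Their mean was -0.63, 1.55-fold lower, and it lay between -0.69 and -0.60 under the normalizations and background correction tried. The probes differed from each other by 0.46, the widest gap among the 9 member genes with several probes read on both arrays.

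GNG10 has a neighbour on the same strand, DNAJC25, with which it is known to form a read-through transcript. The DNAJC25 probe at chr9:114416315-114416374 was also lower with si-THOC2, at 40.9 ± 5.05 against 19.4 ± 3.78 (log2 fold change -0.76, technical SD 0.29). The single gene and the read-through transcript cannot be told apart with these GNG10 probes here, and the part of the read-through transcript in the GNG10 values was not tested.

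GNG2, a Gγ found with GNB1 in many receptor pathways, had 114.8 ± 11.9 with NC and 60.6 ± 6.88 with si-THOC2. The log2 fold change was -0.61, 1.53-fold lower, with a technical SD of 0.11. After normexp it was -0.38, which is under 1.5-fold. In the block of spots around this probe, 8.33% of compared probes were called lower by 2-fold, against 3.33% over the whole array, and centring on that block left the log2 fold change at -0.62. The probe lies at chr14:52436151-52436210, and its first 30 bases are shown since GNG2 has no second probe.
GNG2: ggagattgcctaccaaggacaaaacaataa

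The other Gγ genes measured on both arrays differed by less than 1.2-fold, apart from GNG12 after normexp. GNG12 had 906 ± 90.7 and 638 ± 63.9 (log2 fold change -0.20, and -0.31 after normexp). GNG4, a Gγ of neural tissue, had 0.22 from its stronger probe (3966 ± 397 and 3718 ± 372) and 0.13 from the weaker. GNG5 had 5120 ± 512 and 4243 ± 424 (0.04), and its sign changed under normalization, normexp and block centring (-0.18 at the lowest, with 17.5% of the probes in its block called higher). GNG7, a Gγ of the striatum that pairs with GNAL, had 44.8 ± 5.38 and 40.3 ± 5.18 (0.16, technical SD 0.29). GNGT1, the rod photoreceptor Gγ, was read at 15.7 ± 3.39 on the NC array only, with 16.3 ± 3.66 on the other, which gives no fold. GNG3, GNG8, GNG13 and the cone subunit GNGT2 were not well above background on either array, at signals of at most 11.2.

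GNG11, a farnesylated Gγ, and RGS2 were each printed at 10 spots per array, so that their technical spread could be seen directly. GNG11 had between 6817 and 6993 (median 6914) over the 8 NC spots used and between 5001 and 5276 (median 5213) over the 10 si-THOC2 spots. The 2 sets of spots did not overlap before or after scaling. The scaled log2 mean was 6.14 with NC and 6.04 with si-THOC2, giving a log2 fold change of -0.10. RGS2 had between 579 and 718 (median 684) over the 9 NC spots used and between 630 and 695 (median 645) over 7 si-THOC2 spots, which overlapped as signals. After scaling they did not overlap, with means of 2.78 and 3.04 and a log2 fold change of 0.27. Spots of 1 array share 1 RNA sample, so that these gaps describe the arrays and not the conditions. The share of all repeatedly printed probes whose spots separate in this way was not counted. The lack of overlap is therefore not read as a trait of these genes.

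**Figure D3:**
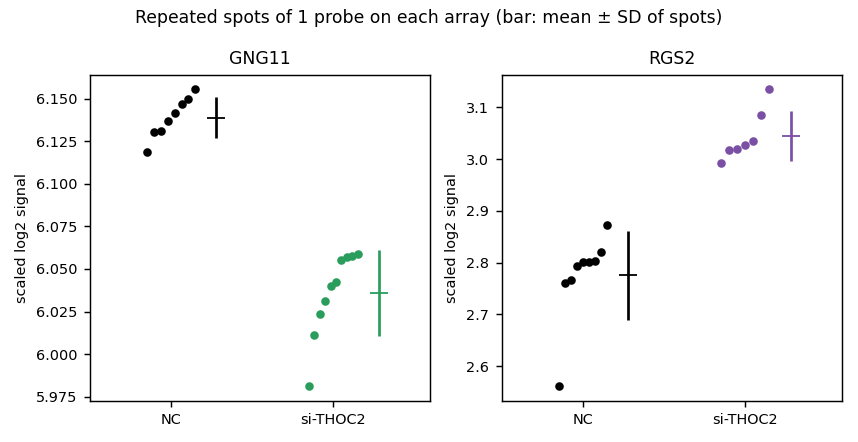
Scaled log2 signal of each spot of the GNG11 and RGS2 probes on both arrays, with the mean ± SD of the spots beside them. GNG11 spots lie lower on the si-THOC2 array and RGS2 spots higher, without overlap on this scale. The share of all repeatedly printed probes that separate in this way was not counted.

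Of 10 RGS genes measured on both arrays, 4 were below 0 and 6 above, with a median of 0.22 and a range of -0.20 to 0.57. The median stayed above 0 under the alternatives that kept a detection filter, between 0.05 and 0.22. It was 0.34 with no filter, where genes not well above background on either array enter. RGS16 and RGS19 were the furthest above 0, and none was lower by 1.5-fold or more. By subfamily, all 3 RZ genes were above 0, of 4 R4 genes 2 were above 0, and of 3 R12 genes 1 was.

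The R4 subfamily holds small RGS proteins that act on Gi and Gq. RGS16 was higher with si-THOC2 in both probes, before and after scaling. The first 30 bases of each probe are shown, since these are separate readings of the gene.
RGS16, chr1:182567871-182567930: ctctgaatgtgctgggaacctcttggagcc
RGS16, chr1:182571118-182571177: tccgatcagctaccaagctggcctccaggg
The first had 1734 ± 173 with NC and 2185 ± 219 with si-THOC2, giving a log2 fold change of 0.64 (1.56-fold, technical SD 0.06). The second had 304 ± 30.5 and 344 ± 34.6, a log2 fold change of 0.49 (1.40-fold). The mean was 0.57, or 1.48-fold, and 0.47 after normexp and after centring on the surrounding blocks of spots. The block around the first probe had 14.4% of its compared probes called higher by 2-fold, against 2.93% over the array, while the block of the second had 3.77%.

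RGS4, a regulator of Gi and Gq studied mostly in brain and heart, had a strong probe at 57688 ± 5769 with NC and 43851 ± 4385 with si-THOC2 (log2 fold change -0.09). Its lowest value under the alternatives was -0.22, with normexp. RGS3, which also binds βγ, had 1553 ± 155 and 1090 ± 109 (-0.20). RGS2, which prefers Gq, is given above at 0.27. RGS5, a marker of pericytes, was read on the NC array only, by 2 of 4 probes. The stronger had 20.9 ± 3.61 with NC and 10.3 ± 3.34 with si-THOC2, where it was not well above background. Its bound is 1.06-fold lower, or -0.09 on the log2 scale, which is smaller than its technical SD of 0.44. The weaker, at 16.2 ± 3.43 and 10.5 ± 3.45, gives no fold.

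The RZ subfamily regulates Gz and Gi. RGS19, known as GAIP for its binding to a Gαi protein, had 1798 ± 180 with NC and 2072 ± 207 with si-THOC2. The log2 fold change was 0.51 (1.43-fold, technical SD 0.06), and 0.38 after normexp. Its probe is on the minus strand at chr20:62704534-62704593, and the first 30 bases identify it.
RGS19: ctctatccctaaccccccaaaaataggatg
RGS20 had 304 ± 30.7 and 278 ± 28.1 (0.18). RGS17 had 40.2 ± 5.11 and 38.7 ± 5.06 (0.26, technical SD 0.29). In the R12 subfamily, RGS10 had the same signal on both arrays, 5026 ± 503, which is 0.31 above NC after scaling and 0.17 after block centring. RGS14 had 194.7 ± 19.7 and 147.1 ± 15.1 (-0.10). RGS12 had 70.8 ± 7.89 and 53.8 ± 6.6 (-0.09), and its second probe was dim on both arrays.

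The R7 subfamily acts with GNB5 in neurons and photoreceptors, and 1 of its 4 genes was read, on the NC array only. RGS9 had 21.5 ± 3.68 with NC and 6.23 ± 3.33 with si-THOC2, where it was not well above background. The measured log2 fold change was -1.48 (technical SD 0.44), and -0.17 after normexp. The bound is 1.1-fold lower with si-THOC2, or -0.13 on the log2 scale, which is smaller than that SD. Its second probe, with RGS6, RGS7 and RGS11 of this subfamily, RGS1, RGS8, RGS13, RGS18 and RGS21 of the R4 subfamily, and RGS22, were not well above background on either array, at signals of at most 13.

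**Figure D4:**
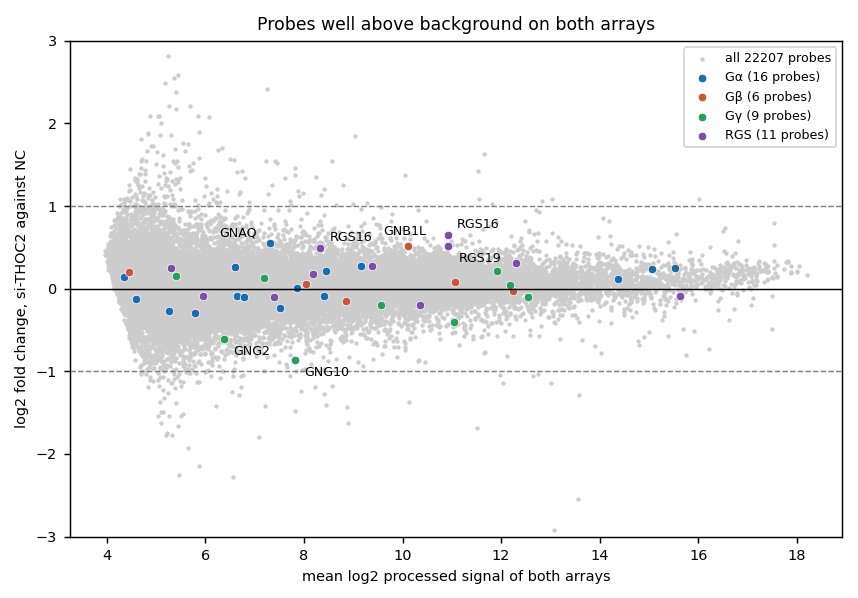
Log2 fold change of si-THOC2 against NC over the mean log2 processed signal for the 22207 probes read well above background on both arrays (grey), with member probes coloured by family and those near or past 0.5 named. All 42 member probes lie between the dashed 2-fold lines, and the grey cloud widens at low signal.

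The probes of a gene agreed in sign for 6 of the 9 genes with several probes read on both arrays, and GNAI3, GNAO1 and GNAS had probes on both sides of 0. The other 23 genes rest on 1 probe each. All 6 genes whose change reached 0.5 kept their sign under every normalization, filter and background correction tried.

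Other parts of the pathway were set beside the subunits by lists of genes. Of 31 G protein-coupled receptors known in melanocytic or other cells, 17 were measured on both arrays, with 5 below 0 and 12 above. Their median was 0.18, against 0.04 over all genes. Under the alternatives the receptor median lay between 0.10 with lowess and 0.24 with no detection filter. The chemokine receptor CXCR4 was furthest from 0, at 33.8 with NC and 45.1 with si-THOC2 (log2 fold change 0.73, and 0.33 after normexp). Of 29 effectors, 16 were measured, with 6 below 0 and 10 above and a median of 0.10. The adenylyl cyclase ADCY1, at 66.4 and 19.1 (-1.49), and ARHGEF25, an exchange factor activated by Gq, at 76.0 and 23.5 (-1.38), were both lower by 2-fold (-0.53 and -0.52 after normexp), while the other effectors measured lay between -0.19 and 0.53.

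All 6 receptor kinases and arrestins measured, of 11 listed, were above 0 with a median of 0.15, though 2 of them were below 0 after quantile normalization and after normexp. GRK3 was the furthest from 0, at 16.9 and 19.2 (0.49, between 0.20 after normexp and 0.67 after lowess), close to the lowest signals well above background. Of 24 chaperones and other regulators of G proteins, 20 were measured, with 7 below 0 and 13 above and a median of 0.10. The chaperonin subunit CCT5 was the furthest from 0, at 57.4 and 24.3 (log2 fold change -0.93), and -0.32 after normexp. Of the other subunits of the same ring, which helps to fold Gβ, CCT2, CCT3, CCT4, CCT6A, CCT7 and CCT8 lay between 0.12 and 0.19. Their signals with NC were between 3833 (CCT8) and 44477 (CCT4), far above that of the 1 CCT5 probe. TCP1 was at -0.07 with 1 probe at -0.36 and the other at 0.21. All 5 enzymes of the Gγ lipid anchor were measured, with 2 below 0 and 3 above. PGGT1B was furthest from 0 at 0.33, but its 2 probes disagreed, at 42.0 and 54.2 in one and at 92.2 and 73.8 in the other. Of 7 other proteins with an RGS domain, 5 were measured, with 3 below 0 and 2 above, and the Wnt pathway scaffold AXIN1 was the furthest, at 385 and 431 (0.47).

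**Figure D5:**
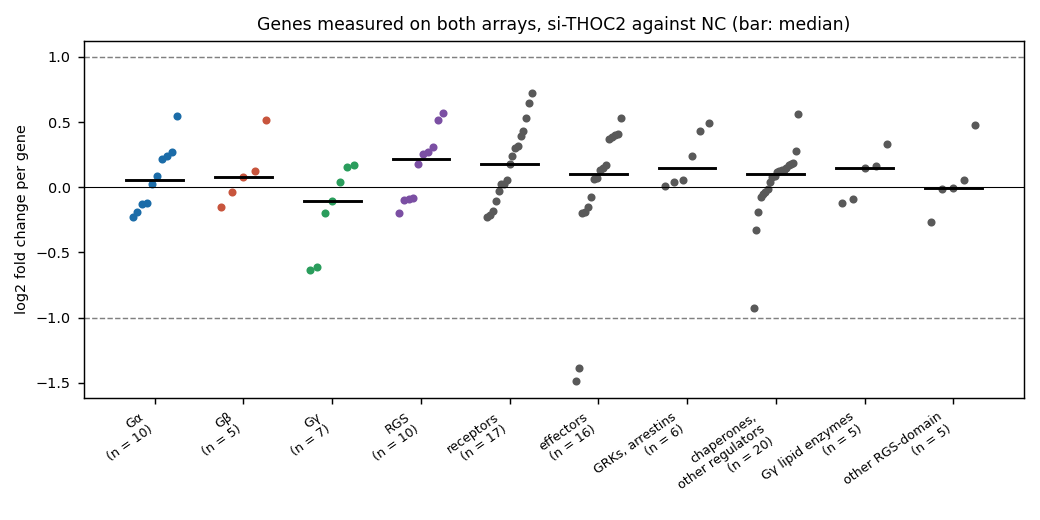
Log2 fold change of si-THOC2 against NC for each gene measured on both arrays, for the Gα, Gβ, Gγ and RGS genes (coloured) and the other pathway lists (grey), with the median as a bar and dashed lines at 2-fold. The subunit and RGS genes lie between -0.63 and 0.57, and ADCY1 and ARHGEF25 among the effectors are the points below the lower dashed line.

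Since the study followed the cAMP pathway, member promoters were searched for the cAMP response element TGACGTCA and its core TGACG, which occurs within it, on both strands of RefSeq promoter entries of 300 bases (GRCh38.p14). Entries were found for 47 of the 55 member genes. The full element was in 2 of 89 member entries (2.25%) and in 1.85% of all 35116 entries. The core was in 25.8% of member entries and 24.6% of all. The entries with the full element were those of GNAO1, where it starts at -148 from the gene start, and GNG7, where it starts at -241. A window of 30 bases of each is shown on the strand of the gene, with the element in capitals.
GNAO1, chr16:56191330-56191359: cgcggccctgcTGACGTCAgctggcggccc
GNG7, chr19:2702915-2702944: gcgccttccTGACGTCAcgaagtcaccctg
Both genes had small changes on the probes read on both arrays, 0.02 for GNAO1 and 0.16 for GNG7.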

How the data were processed

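RNA of 1 NC and 1 si-THOC2 culture was hybridised to 1 array each. The authors deposited the intensity of each spot as given by Agilent Feature Extraction 10.7.1.1 (named in the submitters' processing notes), background-subtracted as the processed signal, and a table of normalized log2 values of both arrays. Sorted values of that table differ by at most 0.000788, so its distributions are equal. A further deposited table holds the authors' own comparison (fold changes and direction) and was not used. The methods also name Student's test, which needs replicates and was not run. Settings of the scanner software beyond this are not given in the sources used here.

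Control spots and spots marked as outliers (147 and 168 of 60901 non-control spots) were left out, the spots of a probe were averaged as log2, and each array's 75th percentile was subtracted. Calls were made from 2-fold upwards, and genes were given the mean over those of their probes that both arrays read well above background. A probe read on 1 array only gives a bound, against the lowest signal well above background on the other array or the probe's own signal if higher. The bound leaves out the error of the signals. With dim signals as measured such a probe still counts at 2-fold. The number of arrays limits the precision. Alternatives were quantile, median and lowess (span 0.3) scaling, normexp (offset 50, limma 3.58.1 in R 4.3.3), the authors' values, centring on 128 blocks of spots, other filters, and folds of 1.5 and 3. Calculations used Python 3.11.15, numpy 2.4.6, pandas 2.3.3 and statsmodels 0.14.6.

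The members, gene lists, classes and tests were chosen with earlier results of these data known. Named were all members, THOC2, and in each list the genes past 2-fold on both arrays or else the gene furthest from 0. Other genes named were singled out after their values were seen. Probe positions (hg19) come from the annotation in the deposited files, and their place in exons or UTRs was not analysed here.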

Additional observations from a re-analysis of the deposited data

How the results depend on the processing

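With 1 array per condition, the limits are the missing replicates and the signal over background, which is low for GNAI1, RGS9 and the third GNAO1 probe. The count of member probes lower by 2-fold, 3, became 0 with normexp, 0 with both arrays required and 0 with dim signals at their limit, and 6 at 1.5-fold and 1 at 3-fold. The count of higher probes, 0, became 1 with no detection filter (the dim RGS12 probe) and 1 at 1.5-fold. The members' median log2 fold change of 0.06 became 0.22 with no filter, -0.0163 at the limit, 0.0029 with probes of 1 array as measured, 0.0149 with quantile normalization, 0.0169 with lowess, 0.0192 with the authors' values, 0.0249 with block centring and 0.0272 with normexp.

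The Gα median of 0.06 became 0.23 with no filter, -0.12 at the limit, -0.12 with probes of 1 array as measured and 0.12 with the brightest probe of each gene. The Gβ median of 0.08 became 0.0190 with quantile normalization, 0.0149 with lowess, -0.0088 with normexp, 0.0190 with the authors' values and 0.0091 with block centring. The Gγ median of -0.10 became -0.18 with quantile normalization, -0.18 with lowess, -0.22 with normexp, -0.18 with the authors' values, -0.17 with block centring, 0.10 with no filter and -0.0323 with probes of 1 array. The RGS median of 0.22 became 0.11 with normexp, 0.34 with no filter, 0.0679 at the limit and 0.0466 with probes of 1 array. THOC2, at -1.03 over its probes, was at -0.51 with normexp and -1.42 with its brightest probe. With no filter and at the limit, other genes and probes enter the medians. The normexp offset of 50 draws the fold changes of dim probes toward 0. The Gβ and Gγ medians with normexp are those of bright genes, GNB2 (2321 with NC) and GNG11 (6913 with NC). The cause of their moves was not tested. For the other settings the cause was not tested either.

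No paired analysis was possible because each condition has 1 array.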
